A study of Mus musculus with 6 samples.

Results

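The genes described here are those of the contractile apparatus of smooth muscle and of the actin cytoskeleton that serum response factor (SRF) controls. They were followed in MS5 cells, a stromal cell line of mouse bone marrow, grown for 7 days with 1 μM PD184352, an inhibitor of the kinase MEK (MEKi), or with DMSO as the diluent. A list of 37 gene symbols defined them, and probe sets were taken where the array's gene table gave exactly 1 of these symbols. This rule found 36 genes on 39 of 28853 probe sets. Rock2 is named by no probe set and was not analysed here. Each of 3 independent experiments gave 1 MEKi and 1 diluent culture, and total RNA of each was hybridized to its own Affymetrix mouse Gene 1.0 ST array, so that there were 3 MEKi and 3 diluent arrays. MS5 is 1 cell line, and both conditions shared the medium with 10% serum. Values are on the log2 scale after RMA (robust multichip algorithm), so that a difference of 1 is a doubling, and a log2 fold change is always MEKi minus diluent. The test was limma, which fits a linear model to each probe set and moderates its variance, and the experiment entered as a block. The standard error is written SE. Adjusted p-values were corrected by Benjamini-Hochberg over all probe sets, and those under 0.05 passed. A probe set's value depends on its probes, so values are compared between arrays. Between genes, only the place above or below the median of all probe set means (the median brightness) is given, as a rough guide.

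Smooth muscle and activated fibroblasts contract when myosin light chain kinase phosphorylates the light chains of myosin, which then pulls on actin filaments, while myosin phosphatase reverses that step. Many genes of this apparatus carry CArG boxes, short elements bound by SRF. SRF works with partners of separate families. The myocardin family (MYOCD, MRTFA and MRTFB), of which the MRTFs sense the pool of free actin, serves the contractile genes, whereas the ternary complex factors, which ERK phosphorylates downstream of MEK, serve early response genes such as Fos and Egr1. Both families compete for the same surface of SRF.

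Promoters are shown for the gene that passed the test (Mylk), for members with unadjusted p-values under 0.05 that hold the element or come close to it (Acta2, Flna, Myl9, Vcl and Fhl2), and for Srf itself. RefSeq windows of 300 bases on GRCm38.p6, from 250 bases before to 50 after an annotated start, were found for 32 of the 37 genes. Each was searched for the CArG box, a motif of 10 bases with CC at its left end, GG at its right end and only A or T between, which reads the same on both strands. Capitals mark CArG boxes, except in Acta2 and Flna, where they mark stretches that are 1 base away from one. A match is a description of the sequence only.
Mylk, chr16:34784700-34784999, plus strand: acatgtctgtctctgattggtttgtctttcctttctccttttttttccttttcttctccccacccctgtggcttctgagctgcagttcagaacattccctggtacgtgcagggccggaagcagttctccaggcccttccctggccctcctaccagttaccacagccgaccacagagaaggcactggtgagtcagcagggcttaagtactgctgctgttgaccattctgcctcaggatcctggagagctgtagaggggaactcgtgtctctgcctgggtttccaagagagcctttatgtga
Acta2, chr19:34255324-34255623, minus strand: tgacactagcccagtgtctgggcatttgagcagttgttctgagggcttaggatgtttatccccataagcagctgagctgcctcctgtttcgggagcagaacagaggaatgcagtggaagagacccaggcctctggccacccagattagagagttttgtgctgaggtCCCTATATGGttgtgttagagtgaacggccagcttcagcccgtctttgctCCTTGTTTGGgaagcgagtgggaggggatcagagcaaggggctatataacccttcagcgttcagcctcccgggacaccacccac
Flna, chrX:74246485-74246784, minus strand: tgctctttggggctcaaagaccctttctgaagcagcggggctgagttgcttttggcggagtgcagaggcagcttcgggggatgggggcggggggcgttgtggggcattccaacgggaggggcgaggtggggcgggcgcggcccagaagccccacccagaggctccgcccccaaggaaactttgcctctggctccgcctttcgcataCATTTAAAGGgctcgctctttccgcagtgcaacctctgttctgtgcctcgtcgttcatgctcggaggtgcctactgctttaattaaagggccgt
Myl9, chr2:156775214-156775513, plus strand: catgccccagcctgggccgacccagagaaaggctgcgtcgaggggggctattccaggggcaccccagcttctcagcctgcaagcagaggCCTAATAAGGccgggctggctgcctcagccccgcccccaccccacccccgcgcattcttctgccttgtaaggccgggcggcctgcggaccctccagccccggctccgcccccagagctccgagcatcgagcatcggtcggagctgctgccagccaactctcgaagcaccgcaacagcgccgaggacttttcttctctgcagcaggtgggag
Vcl, chr14:20929148-20929447, plus strand: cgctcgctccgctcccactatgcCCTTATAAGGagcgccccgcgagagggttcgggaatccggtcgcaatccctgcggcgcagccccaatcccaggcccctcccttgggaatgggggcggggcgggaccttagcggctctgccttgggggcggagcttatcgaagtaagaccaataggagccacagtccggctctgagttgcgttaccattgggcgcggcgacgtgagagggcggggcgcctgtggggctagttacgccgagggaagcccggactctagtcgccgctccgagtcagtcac
Fhl2, chr1:43163912-43164211, minus strand: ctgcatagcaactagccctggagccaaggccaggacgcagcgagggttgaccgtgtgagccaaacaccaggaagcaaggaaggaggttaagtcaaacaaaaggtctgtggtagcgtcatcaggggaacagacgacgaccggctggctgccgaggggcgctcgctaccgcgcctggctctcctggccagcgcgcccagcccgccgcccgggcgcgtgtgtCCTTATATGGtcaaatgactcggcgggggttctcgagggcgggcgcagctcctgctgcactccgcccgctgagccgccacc
Srf, chr17:46556113-46556412, minus strand: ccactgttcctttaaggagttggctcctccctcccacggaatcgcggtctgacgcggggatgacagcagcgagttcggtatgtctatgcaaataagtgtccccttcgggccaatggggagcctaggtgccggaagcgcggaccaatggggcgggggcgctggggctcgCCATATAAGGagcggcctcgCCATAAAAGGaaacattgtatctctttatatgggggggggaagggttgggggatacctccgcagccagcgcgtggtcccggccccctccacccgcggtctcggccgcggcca

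CArG boxes were found in 6 of the 32 genes (18.8%), against 488 of 27025 genes in the whole table (1.81%). The list was drawn up partly from genes that SRF controls, so shares above those of the whole table follow from that choice. The 6 genes were Srf, with a pair of boxes, Myl9, Vcl, Fhl2, Cnn2 and Fhl1. Fhl2 held a box in the windows of both of its annotated starts. When 1 base was allowed to differ, 13 of the 32 genes (40.6%) and 23.8% of all genes had a match, Acta2 at positions −84 and −34 from its start. The printed window of Mylk, the only window found for this gene, held neither form, and sequence outside it was not searched. The windows of Cnn1 and Smtn, whose unadjusted limma p-values were also under 0.05, held neither form and are not printed. The log2 fold changes of the 6 genes with a box ran from −0.04 to 0.40, with a median of 0.16, and those of the other 25 measured genes with a window from −0.40 to 0.64, with a median of 0.08. The ranges overlapped, and the difference was not tested. Tagln, Actg2, Myh11, Myocd and Rock1 had no window and are in neither group, although Actg2 (0.59) and Tagln (0.42) had large changes. Acta2, with stretches 1 base away only, counted as a gene without a box. The split is therefore by exact sequence in the windows found, not by binding of SRF.

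**Figure D1:**
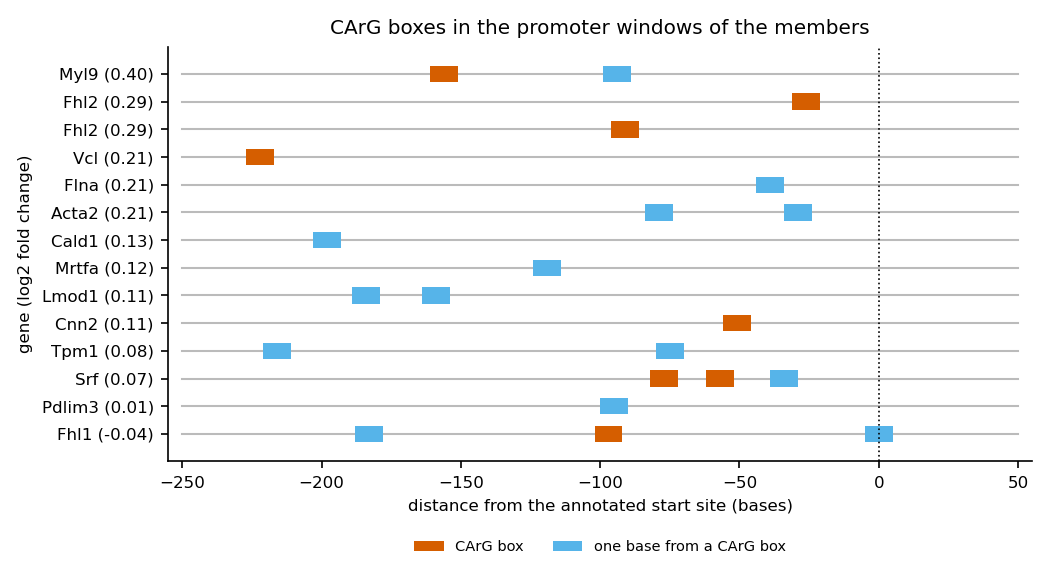
Distance from the annotated start site in bases (x axis) of CArG boxes (orange) and of stretches 1 base away from a CArG box (blue) in the promoter windows of the members that hold either (y axis, with the log2 fold change of each gene in brackets); each grey line is 1 window. Srf has a pair of boxes and Mylk is not drawn because its window holds neither form.

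By limma, 1 of the 36 genes rose with MEKi (adjusted p under 0.05) and 0 fell, against 0.104% of all probe sets that rose and 0.0555% that fell. The gene that rose was Mylk, the myosin light chain kinase. In RNA of whole cultures, a change in the number of cells that express a gene and a change in RNA per cell cannot be told apart. At an unadjusted p under 0.05, 9 genes were higher with MEKi (25.0%, against 7.58% of all probe sets) and 1 was lower (2.78%, against 2.31%). The 9 were Mylk, Actg2, Tagln, Myl9, Cnn1, Fhl2, Vcl, Flna and Acta2, and the gene that was lower was Smtn. The counts were 3 higher and 0 lower if the replicate block was dropped, and 4 were higher without experiment 2 or without experiment 3. Smtn left the count without experiment 1 or 3. Among probe sets at or above the median brightness, which hold 29 of the members, the unadjusted count was again 9 (31.0%, against 10.7% of such probe sets), and 8 when limma was fitted to these probe sets alone. At an unadjusted p of at most 0.05 and at least 1.5-fold, Mylk and Actg2 were higher, 2 of 36 genes (5.56%, against 0.26% of all probe sets).
Higher values in all 3 experiments were seen in 15 of the 36 genes (41.7%), against 23.8% of all probe sets, and in 12 after a further quantile normalization or 13 after centring. Among the brighter probe sets the counts were 14 of 29 genes (48.3%), against 30.3%. None of the 36 was lower in all 3 experiments (2 after quantile normalization, 1 after centring), against 7.98% of all probe sets, and 21 had mixed directions. The 3 MEKi arrays lay above the 3 diluent arrays for Mylk and Acta2 only, 5.56% of the genes, against 5.69% of all probe sets. For no gene did the MEKi arrays all lie below the diluent arrays (2.17% of all probe sets).

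**Figure D2:**
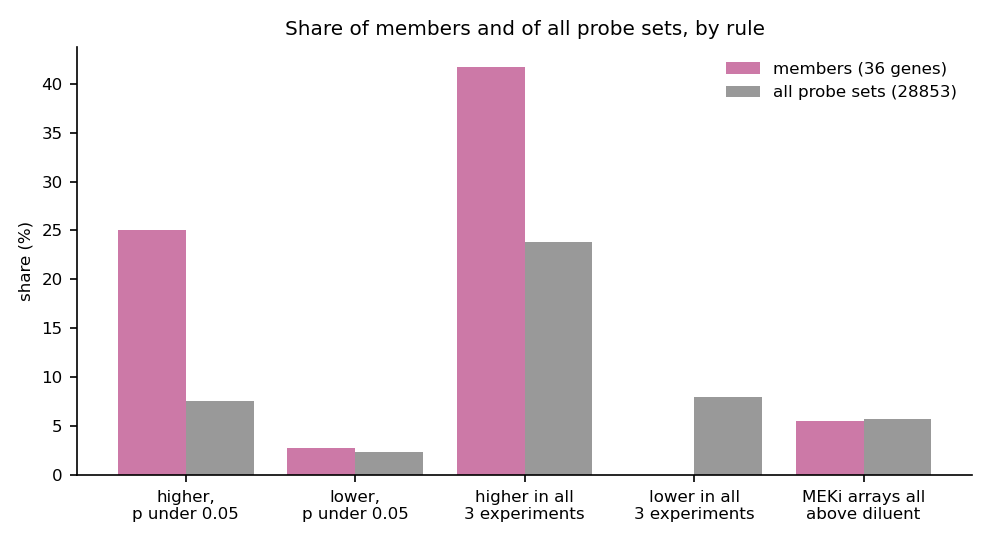
Share in percent (y axis) of the 36 members (pink) and of all 28853 probe sets (grey) that meet each rule (x axis). The members' share is 25.0% against 7.58% for higher values at an unadjusted p under 0.05, and 5.56% against 5.69% for MEKi arrays that all lie above the diluent arrays.

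The median log2 fold change of the 36 genes was 0.08, and that of all probe sets was 0.04. By experiment the medians of the genes were 0.06, 0.17 and 0.07 in experiments 1, 2 and 3. The medians of all probe sets were −0.003, 0.10 and 0.01, so that the median probe set was also higher with MEKi in experiment 2. Positive log2 fold changes were found for 30 of the 36 genes, against 64% of all probe sets, a share not counted among the brighter ones alone. For 34 of the 36 genes the range over the 3 diluent arrays was larger than the log2 fold change, the exceptions being Mylk and Acta2. That range includes differences between experiments, which the paired MEKi arrays share and which the block removes from the test. For 29 genes the 95% confidence interval of the change lay within 1.5-fold in either direction. These include the 7 genes below the median brightness, Lmod1, Synpo2, Ppp1r14a, Myh11, Pdlim3, Myocd and Pgm5. Whether the probe sets of these 7 measured RNA above background was not tested, so their intervals do not show that a change was absent. In 6 genes at least 1 experiment differed by 1.5-fold or more, and in no gene did all 3.

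**Figure D3:**
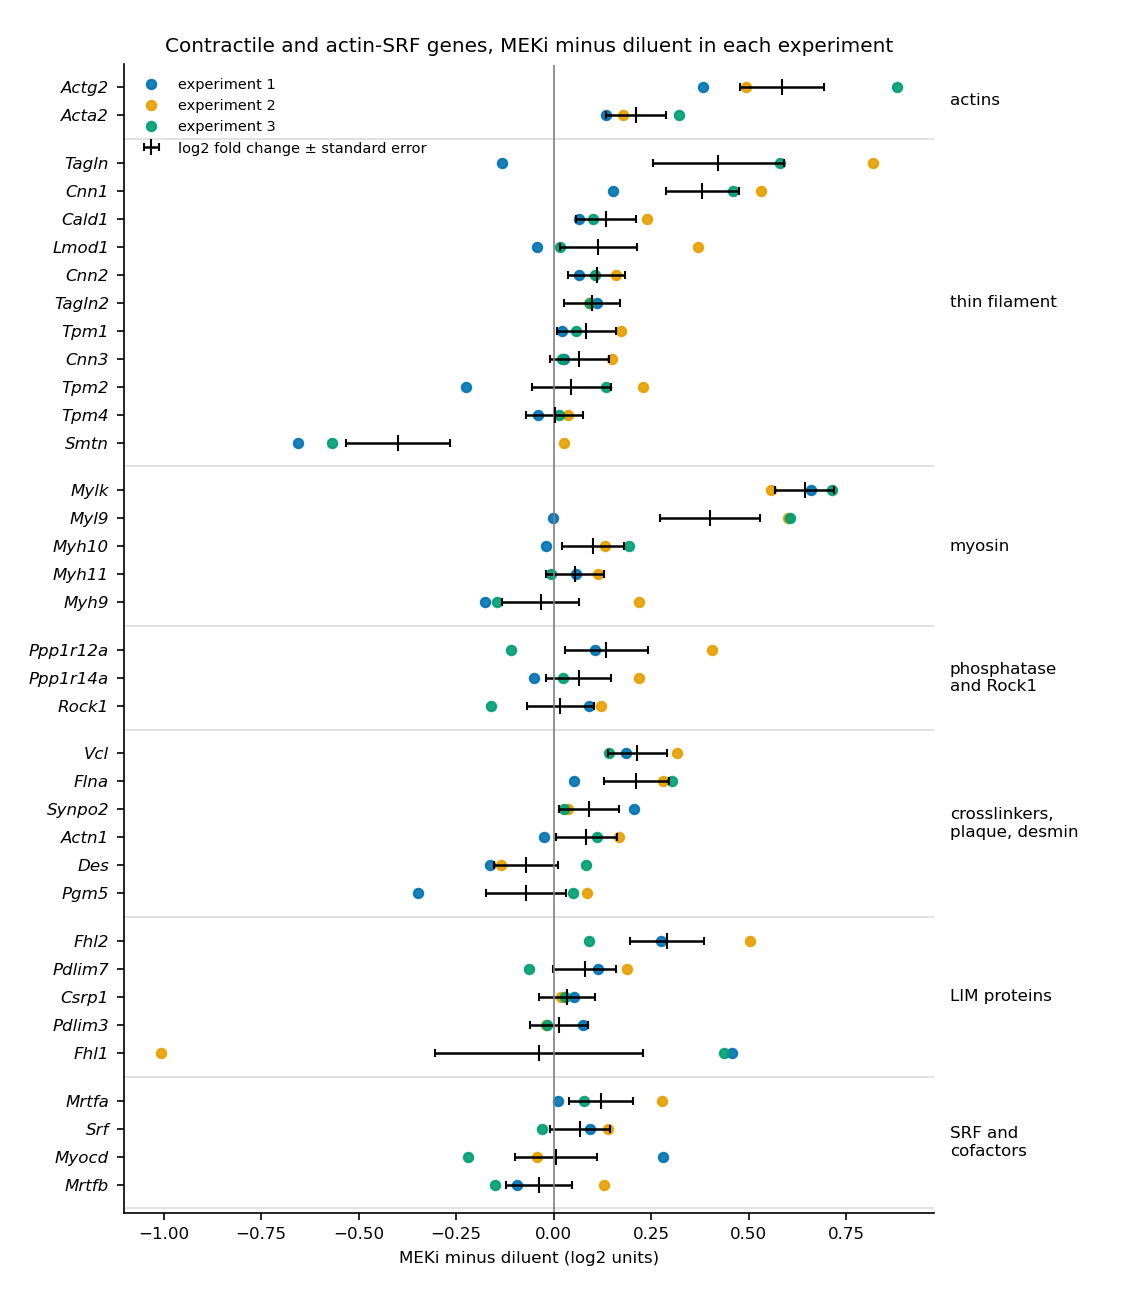
Log2 difference of MEKi minus diluent (x axis) for the 36 measured genes, grouped by role (y axis). Each experiment is a coloured point, and black bars give the limma log2 fold change ± SE. All 3 points of Mylk lie between 0.56 and 0.71, whereas those of Tagln run from −0.13 to 0.82.

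Mylk encodes the kinase that switches on smooth muscle myosin. Its values were 10.35, 10.12 and 10.03 with MEKi in experiments 1, 2 and 3, and 9.69, 9.56 and 9.32 with diluent. Every MEKi array lay above every diluent array. The differences were 0.66, 0.56 and 0.71, and their mean of 0.64 equals 1.56-fold (95% confidence interval 1.38 to 1.77, 3 experiments, limma adjusted p = 0.0454). The call was lost when the replicate block was dropped (limma adjusted p = 1) or made random (0.283). It was also lost when arrays were quantile normalized again (0.0746) or set to equal medians (0.077), and when experiment 1 (0.141), 2 (0.14) or 3 (0.104) was left out. The log2 fold change stayed between 0.60 and 0.69 in these fits. The gene gives rise to several proteins, which its 1 probe set cannot tell apart.

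Myl9, the regulatory light chain that this kinase phosphorylates, had 9.81, 9.60 and 9.26 with MEKi and 9.81, 9.00 and 8.65 with diluent. The cultures of experiment 1 had the same value, and those of experiments 2 and 3 differed by 0.60 and 0.61. The groups overlapped, and the log2 fold change was 0.40 (SE 0.128, limma adjusted p = 0.379). It was 0.60 without experiment 1.
The heavy chains gave smaller differences. Myh11, the smooth muscle heavy chain, had 5.96, 6.08 and 5.98 with MEKi and 5.90, 5.96 and 5.99 with diluent, below the median brightness of the array on each. Its log2 fold change was 0.06 (95% confidence interval −0.12 to 0.23). Myh10 and Myh9, the non-muscle heavy chains IIB and IIA, had log2 fold changes of 0.10 and −0.03. A second probe set of Myh9 had one of 0.05.

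Both smooth muscle actins had higher values with MEKi in all 3 experiments, and neither passed. Actg2, the enteric smooth muscle actin, had 7.98, 7.46 and 8.28 with MEKi and 7.60, 6.97 and 7.40 with diluent. The MEKi culture of experiment 2 lay below the diluent culture of experiment 1, so the groups overlapped. The differences were 0.38, 0.49 and 0.88 (log2 fold change 0.59, SE 0.107, limma adjusted p = 0.162).
Acta2, the vascular smooth muscle actin that also marks myofibroblasts, had 12.66, 12.58 and 12.65 with MEKi and 12.52, 12.41 and 12.33 with diluent. The groups did not overlap. The differences of 0.13, 0.18 and 0.32 gave a log2 fold change of 0.21 (SE 0.078, limma adjusted p = 0.44), or 1.16 times the diluent level. Actin genes are alike in sequence, and probes of one can take up RNA of another, which was not tested here. Acta1, the skeletal muscle actin, had a log2 fold change of 0.36 (limma adjusted p = 0.487).

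**Figure D4:**
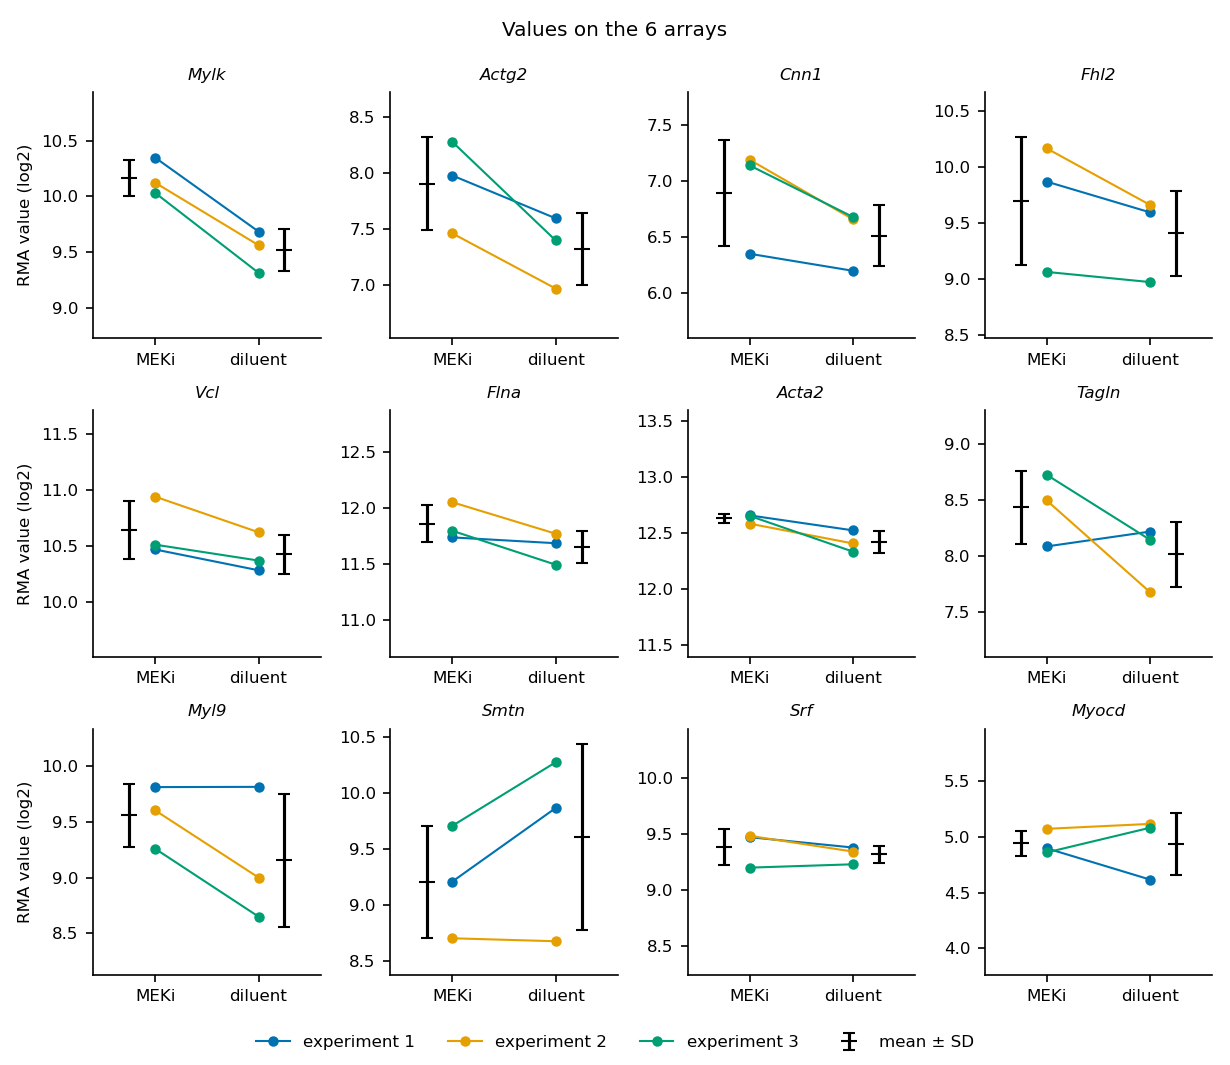
RMA values on the log2 scale (y axis) of 12 genes on the 6 arrays, MEKi left and diluent right (x axis); coloured lines join the cultures of an experiment, black bars are the mean ± SD of 3 cultures, and every panel spans the same height. Each line of Mylk and Acta2 slopes the same way and their groups do not overlap, while the lines of Tagln, Myl9, Smtn, Srf and Myocd differ in direction between experiments.

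Of 11 regulators of the thin filament, 10 had positive log2 fold changes (64% of all probe sets). In all 3 experiments 6 of the 11 were higher (23.8% of all probe sets and 30.3% of the brighter ones). Of the 11, 10 lay at or above the median brightness. Among the genes with positive changes, Tpm2 and Tpm4 turned negative when arrays were quantile normalized again, Tpm4 also when they were centred. None passed. Cnn1, the calponin of differentiated smooth muscle, had 6.35, 7.19 and 7.14 with MEKi and 6.20, 6.66 and 6.68 with diluent. It was low in both cultures of experiment 1, and the groups overlapped. Its differences were 0.15, 0.53 and 0.46 (log2 fold change 0.38, SE 0.094, limma adjusted p = 0.265).
Tagln, which encodes the actin-binding protein SM22α, had 8.08, 8.49 and 8.72 with MEKi and 8.22, 7.67 and 8.14 with diluent. MEKi minus diluent was −0.13 in experiment 1 and 0.82 and 0.58 in experiments 2 and 3. The log2 fold change was 0.42 (SE 0.167, limma adjusted p = 0.476), 0.70 without experiment 1 and 0.22 without experiment 2.
The non-muscle relatives Tagln2, Cnn2 and Cnn3 were higher in every experiment, by little. Tagln2 differed by 0.11, 0.09 and 0.09. Cnn2 had a log2 fold change of 0.11 and Cnn3 one of 0.07.

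Cald1, which encodes caldesmon, a brake on actin and myosin binding, had 10.80, 11.19 and 10.93 with MEKi and 10.74, 10.95 and 10.83 with diluent. The groups overlapped and the log2 fold change was 0.13 (SE 0.077). Of the tropomyosins, which line the actin filament, Tpm1, Tpm2 and Tpm4 had log2 fold changes of 0.08, 0.05 and 0.003. Tpm2 differed by −0.23 in experiment 1 and by 0.23 and 0.13 in experiments 2 and 3. Lmod1, a leiomodin that nucleates actin filaments, had 0.11 as its log2 fold change, and most of it came from experiment 2 (0.37, against −0.04 and 0.02 in experiments 1 and 3).
Smtn, which encodes smoothelin, a protein of contractile smooth muscle stress fibres, was the exception of the group. Its values were 9.21, 8.70 and 9.71 with MEKi and 9.87, 8.68 and 10.28 with diluent. Experiment 2 was lowest in both conditions and showed no fall (0.03), whereas experiments 1 and 3 differed by −0.66 and −0.57. The log2 fold change was −0.40 (SE 0.134, limma adjusted p = 0.396), and −0.61 without experiment 2.

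Of 6 genes for crosslinkers, adhesion plaques and intermediate filaments, 3 were higher in all 3 experiments (23.8% of all probe sets) and none passed. Vcl, which encodes vinculin of the adhesion plaque, had 10.47, 10.94 and 10.51 with MEKi and 10.28, 10.62 and 10.37 with diluent. Flna, which encodes the crosslinker filamin A, had 11.74, 12.05 and 11.80 with MEKi and 11.69, 11.77 and 11.50 with diluent. The groups of both genes overlapped.
Vcl had a log2 fold change of 0.21 (SE 0.077, limma adjusted p = 0.421) and Flna the same size (SE 0.083, limma adjusted p = 0.468). The array values of both genes were highest in experiment 2 in either condition. The differences in experiments 1, 2 and 3 were 0.19, 0.32 and 0.14 for Vcl and 0.05, 0.28 and 0.30 for Flna. Synpo2 (myopodin), Actn1 (α-actinin 1), Des (desmin) and Pgm5 (aciculin) had log2 fold changes of 0.09, 0.08, −0.07 and −0.07. Synpo2 and Pgm5 lay below the median brightness. Des is the intermediate filament of muscle, and its 3 differences were −0.16, −0.13 and 0.08.

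Among 5 genes for LIM domain proteins, Fhl2, a cofactor that binds SRF and is itself one of its targets, had 9.87, 10.16 and 9.06 with MEKi and 9.59, 9.66 and 8.97 with diluent. Both cultures of experiment 3 were low, and the groups overlapped. The differences of 0.27, 0.50 and 0.09 gave a log2 fold change of 0.29 (SE 0.095, limma adjusted p = 0.389).
Fhl1, its relative of striated muscle, had the largest standard error of the members (0.266). Its values were 7.86, 8.26 and 8.52 with MEKi and 7.40, 9.27 and 8.08 with diluent. The diluent culture of experiment 2 stood highest, so that the difference was −1.01 there and 0.46 and 0.44 in experiments 1 and 3. The log2 fold change was −0.04 over all 3 experiments and 0.45 without experiment 2. Pdlim7, Csrp1 and Pdlim3, which encode adaptor proteins of stress fibres and Z lines, had log2 fold changes of 0.08, 0.03 and 0.01, of which those of Csrp1 (quantile normalization) and Pdlim3 (quantile normalization and centring) turned negative under another scaling.

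None of Ppp1r12a, Ppp1r14a and Rock1 passed, and their intervals included 0. Ppp1r12a, the subunit that targets the phosphatase to myosin, had a log2 fold change of 0.13 (95% confidence interval −0.12 to 0.38). Ppp1r14a, the phosphatase inhibitor CPI-17, had one of 0.06 (−0.13 to 0.26) and Rock1 one of 0.02 (−0.18 to 0.22), which turned negative when arrays were quantile normalized again or centred.

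SRF and its cofactors differed little. Srf had 9.47, 9.49 and 9.20 with MEKi and 9.38, 9.34 and 9.23 with diluent (log2 fold change 0.07, 95% confidence interval −0.11 to 0.25, limma adjusted p = 0.821). Mrtfa had 8.53, 8.55 and 8.15 with MEKi and 8.52, 8.27 and 8.07 with diluent. It was higher in each experiment, by 0.01, 0.28 and 0.08 (log2 fold change 0.12).
Mrtfb had 9.58, 9.61 and 9.47 with MEKi and 9.68, 9.49 and 9.62 with diluent, a log2 fold change of −0.04. Its other probe sets gave 0.07 and −0.04. Myocd, the cofactor restricted to cardiac and smooth muscle, had 4.90, 5.07 and 4.86 with MEKi and 4.62, 5.11 and 5.08 with diluent. It lay below the median brightness on each array, and its differences had opposite signs (0.28, −0.04 and −0.22).
The groups overlapped for all 4 genes. None of the 4 passed the test, and their 95% confidence intervals lay within 1.5-fold in either direction. Whether the Myocd probe set, below the median brightness, measured its RNA was not tested, so its interval does not bound a change. mRNA values say nothing of where the proteins were in the cell or how active they were.

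Genes outside the members were read by lists. Of 23 measured further actin cytoskeleton targets of SRF and MRTF, none passed, and the median log2 fold change was 0.06. At an unadjusted p under 0.05 from limma, 1 was higher and 1 lower, against 7.58% and 2.31% of all probe sets. The values furthest from 0 were those of Fblim1, a filamin partner of adhesion plaques (−0.58), Enah, which promotes actin filament elongation (0.35), and Pdlim1, an α-actinin adaptor (0.22). Fblim1 was lower in all 3 experiments (7.95, 8.75 and 8.67 with MEKi, against 8.84, 9.06 and 9.20 with diluent).
Of 16 further smooth muscle and pericyte genes none passed (median 0.03). At an unadjusted p under 0.05 from limma, 2 were higher and 0 lower, against 7.58% and 2.31% of all probe sets. Aoc3, an amine oxidase of smooth muscle and adipocyte membranes, had a log2 fold change of 0.49, Pln, which encodes the calcium pump regulator phospholamban, one of 0.26, and Hspb6, a small heat shock protein, one of 0.16. Only 6 of these 16 genes lay at or above the median brightness, against 29 of the 36 members. Pln lay below it, whereas Aoc3 and Hspb6 lay above it.

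The early response targets that SRF shares with the ternary complex factors had medians below those of the contractile genes in each experiment. The list of 10 had medians of −0.69, −0.03 and −0.33 in experiments 1, 2 and 3, with 6 of 10 lower in all 3 experiments (7.98% of all probe sets) and 1 higher. None passed (1 higher and 5 lower at an unadjusted p under 0.05 from limma, against 7.58% and 2.31% of all probe sets). The difference from the contractile genes was not tested. Egr1 had 9.43, 9.23 and 9.37 with MEKi and 10.21, 9.65 and 10.13 with diluent, a log2 fold change of −0.65. Fos had 6.53, 6.09 and 6.27 with MEKi and 7.86, 6.16 and 6.74 with diluent. It differed by −1.33, −0.06 and −0.47 in experiments 1, 2 and 3 (log2 fold change −0.62), and its groups overlapped. Ier2 had 6.58, 6.40 and 6.62 with MEKi and 7.47, 6.66 and 6.88 with diluent. Its differences were −0.90, −0.25 and −0.27 (log2 fold change −0.47). For Fos and Ier2 the diluent culture of experiment 1 stood highest. The values of Egr1 and Ier2 did not overlap between the groups.
The factors themselves gave 0.23 for Elk1, 0.15 for Elk4 and −0.08 for Elk3. Elk1 was higher in all 3 experiments, by an amount that did not pass (limma adjusted p = 0.381).

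**Figure D5:**
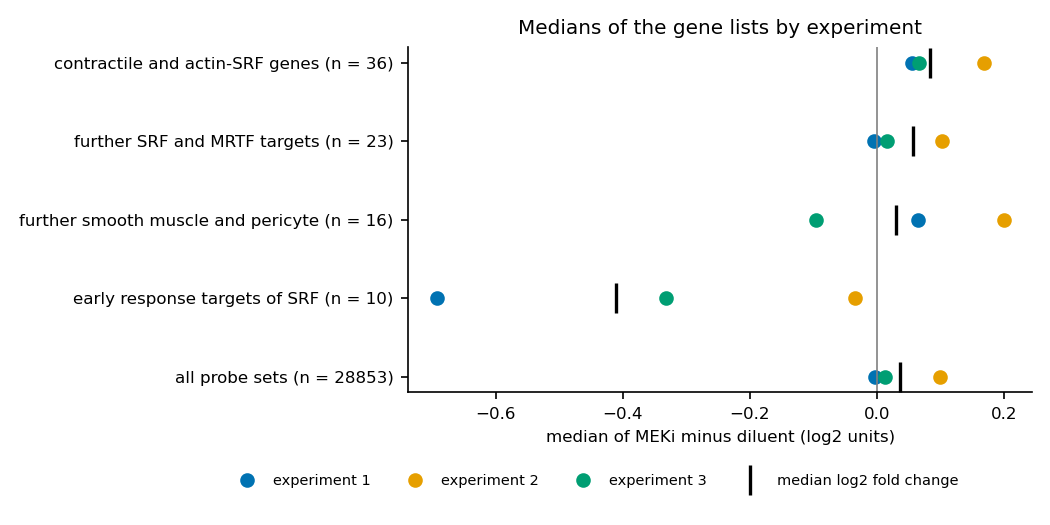
Median log2 difference of MEKi minus diluent (x axis) in 4 gene lists and in all probe sets (y axis). Each experiment is a coloured point, and black bars give the median of the log2 fold changes. The medians of the contractile and actin-SRF genes lie between 0.06 and 0.17, and those of the early response targets between −0.69 and −0.03.

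Markers were read to check the cells. Of 11 stromal and fibroblast markers, 8 lay at or above the median brightness, Dcn, Thy1 and Lum being the others. The endothelial markers were all below it, and Krt8 was the only one of 4 epithelial markers above it. Of 13 skeletal and cardiac muscle markers 4 were above it, Acta1 among them, while Myod1, Myog and Ckm were below. Of 5 leukocyte markers, Cd68 and Lyz2 were above it, and Ptprc, Itgam and Cd3e were below. Cd68, a lysosomal protein, had 9.69, 8.96 and 10.67 with MEKi and 10.62, 9.10 and 11.41 with diluent. Like Smtn, it was lowest in experiment 2 and highest in experiment 3 in both conditions, and its log2 fold change was −0.61 (limma adjusted p = 0.249). Lyz2, the lysozyme of macrophages, was higher with MEKi in all 3 experiments (8.85, 7.99 and 7.99 with MEKi and 8.47, 7.72 and 7.37 with diluent), with 0.42 as its log2 fold change (limma adjusted p = 0.19). None of the markers passed. Their part in the values above was not tested.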

How the data were processed

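Total RNA of 6 MS5 cultures was labelled and hybridized to Affymetrix mouse Gene 1.0 ST arrays. The authors normalized the raw intensities with RMA, and the deposited values are log2 values of 28853 probe sets. Quality controls were run in Partek. The versions of RMA and Partek and a genome build are not given in the sources used here. No filter or normalization was added, and array medians lay between 6.29 and 6.38.

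Probe sets were named by a platform gene table (21789 name 1 gene, 1621 several, 5443 have no symbol listed). For Myh9 and Mrtfb, the 2 members with several probe sets, the brightest stood for the gene. The difference of MEKi minus diluent was fitted with limma 3.58.1 under R 4.3.3 (lmFit, then eBayes), the experiment being a block, leaving 2 residual and 5.17 prior degrees of freedom. The titles and the paper give 1 culture of each condition per experiment. Over probe sets, deviations from the group means correlated by 0.81, 0.59 and 0.62 within experiments, and by −0.605 to 0.2065 between experiments. The deviations of 3 arrays sum to 0, so these correlations are not independent of each other. Alternatives changed the block, scaling, filter, prior, weights and probe set rule, or left out each experiment. The number of arrays limits the precision. The code was tested on simulated data. Array values are given for Mylk as the gene that passed and for the core contractile genes and SRF factors. They are also given for the 8 members with the largest change among those with 1 direction in all 3 experiments. Those of Myl9, Smtn and Fhl1 were chosen after their values were seen, as were those of Egr1, Fos, Ier2, Fblim1, Cd68 and Lyz2. Of each other list described, the 3 genes with the largest change are named, and 1 further list is not reported here. Acta1 and Rock2 are named for their relation to members. Members and lists were chosen with earlier results of these data known. Plots were made by matplotlib 3.10.9 (Python 3.11.15).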

Additional observations from a re-analysis of the deposited data

How the results depend on the processing

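The single call at an adjusted p under 0.05 held among brighter probe sets, over probe sets naming 1 gene, when the prior was robust and followed intensity, when arrays were weighted and when probe sets of a gene were averaged. It was lost, leaving 0 members higher, when the replicate block was dropped or random, when arrays were quantile normalized again or centred, and when any 1 experiment was left out (0 in each). By an unadjusted p of at most 0.05 and at least 1.5-fold, 2 members were higher, Mylk and Actg2, against 0.26% of all probe sets. No alternative called a member lower at an adjusted p under 0.05. At an unadjusted p, 3 members were higher and 0 lower if the replicate block was dropped, 5 and 0 if it was random, and 4 to 8 higher and 0 to 1 lower when 1 experiment was left out (4 higher without experiment 2 or 3). These unadjusted counts and those over all 3 experiments were added after the data were seen. With further quantile normalization 12 members were higher and 2 lower in all 3 experiments, and with centring 13 and 1. The median stayed between 0.04 and 0.12. The block changed no other adjusted call. The number of arrays limits what could be called, and 7 members lay below the median brightness.

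Of the 36 genes, 23 kept their sign under every alternative. The other 13 had log2 fold changes between −0.07 and 0.13, and their signs turned as follows. After quantile normalization the log2 fold changes were −0.00758 for Tpm2, −0.018 for Csrp1, −0.031 for Rock1, −0.019 for Pdlim3, −0.017 for Myocd and −0.021 for Tpm4. After centring they were −0.015 for Rock1, −0.019 for Pdlim3, −0.027 for Myocd and −0.029 for Tpm4. With array weights they were −0.0077 for Rock1, −0.0024 for Tpm4 and 0.14 for Fhl1, and with the mean of its probe sets 0.0085 for Myh9. Leaving out 1 experiment gave ranges of −0.0019 to 0.26 for Ppp1r12a, −0.013 to 0.19 for Lmod1, −0.013 to 0.12 for Ppp1r14a, −0.046 to 0.18 for Tpm2, −0.035 to 0.11 for Rock1, −0.018 to 0.029 for Pdlim3, −0.13 to 0.12 for Myocd, −0.014 to 0.024 for Tpm4, −0.16 to 0.037 for Myh9, −0.12 to 0.018 for Mrtfb, −0.29 to 0.45 for Fhl1 and −0.15 to 0.067 for Pgm5. The causes were not tested.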

Other observations

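A further probe set names Tpm4 together with another gene and was left out of the 36 genes for that reason. Its values were 12.04, 12.11 and 12.06 with MEKi in experiments 1, 2 and 3 and 12.03, 12.14 and 12.09 with diluent, a log2 fold change of −0.01 (SE 0.072). Of the ternary complex factor targets, Nr4a1, an orphan nuclear receptor, had higher values with MEKi in all 3 experiments, while the median of its list was below 0. It had 10.71, 10.30 and 10.32 with MEKi and 10.22, 9.69 and 10.03 with diluent, without overlap of the groups, and a log2 fold change of 0.46 (SE 0.087, limma adjusted p = 0.173). It was chosen after its values were seen.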
